A study of Rattus norvegicus with 3 samples.

Results

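Dbi, Fabp7, Fabp5 and Apoe encode proteins that carry lipids inside cells or between them. They are 4 of the 32623 genes in the count matrices of a single-cell RNA sequencing series of the developing rat cochlea, and 4 of the 21908 genes with at least 1 molecule in a kept cell. The 4 genes were chosen by their CPM levels across cell types and stages in an earlier analysis of the same matrices. Their levels by stage and by cell type are therefore given here as a description, with no test. Dbi (ENSRNOG00000046889) was detected in 25575 of the 30641 kept cells, Fabp7 (ENSRNOG00000000814) in 349, Fabp5 (ENSRNOG00000049075) in 16893 and Apoe (ENSRNOG00000018454) in 27698.

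The series holds untreated Sprague-Dawley rats of 3 postnatal ages, written P1 for day 1, P7 for day 7 and P14 for day 14. Each stage was 1 droplet library, made from the dissociated cochlear basal membranes of 40 pooled rats. No spread between animals or libraries can therefore be measured, and no stage difference below has a replicate check. Levels are summed unique molecular identifiers (UMIs) of a group of cells as a proportion of all UMIs of those cells (CPM, where 1 CPM is 0.0001%), and square brackets hold exact 95% intervals that cover counting error only.

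Of 34927 barcodes, 30641 had over 500 and under 5000 genes and under 25% of UMIs on mitochondrial genes: 12779 at P1, 12581 at P7 and 5281 at P14. The P14 library was shallower, with a median of 1614 UMIs per kept cell against 6565 at P1 and 6878 at P7. Between 16 and 53 cell barcodes were shared by each pair of libraries. Doublet calling by Scrublet marked 4.87% of cells at P1 and 6.16% at P7, and marked cells were kept. At P14 it marked 0.0379%, 2 cells, so it did not work on that library. The labels call the cells greater epithelial ridge cells, the tall epithelium beside the hair cells. Only 1.9% of kept cells fell in a cochlear epithelium-like cluster, in which the 8 ridge markers summed to 2530 CPM at P1, 4779 CPM at P7 and 1250 CPM at P14. In the mesenchymal-like cells, which made up most of each library, the same 8 markers summed to 37.8, 67.7 and 111.3 CPM.

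Dbi encodes the acyl-CoA-binding protein, which holds long-chain acyl-CoA esters in the cytoplasm and, when cut into peptides, acts on benzodiazepine sites. Fabp7 (brain type) and Fabp5 (epidermal type) belong to the intracellular lipid-binding family, small barrel-shaped proteins that carry fatty acids and retinoids to membranes, enzymes and nuclear receptors. Apoe is a secreted apolipoprotein that carries cholesterol and phospholipid between cells and is taken up by receptors of the low-density lipoprotein receptor family. Glia that build myelin make large amounts of cholesterol and fatty acids, and in the brain Fabp7 and Apoe are known as genes of astrocytes and glial progenitors.

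The promoters of Dbi and Fabp7 are shown because these genes gave the highest and the lowest UMI totals among the 3 intracellular carriers. Each is the 250 bases before the start in RefSeq on GRCr8, a build other than the rn6 build of the counts. Capitals mark CCAAT on either strand (read as ATTGG on the reverse), and in Fabp7 also GGGCGG and ACAAT, which stand as CCGCCC and ATTGT.
Dbi, chr13:33802619-33802868, minus strand: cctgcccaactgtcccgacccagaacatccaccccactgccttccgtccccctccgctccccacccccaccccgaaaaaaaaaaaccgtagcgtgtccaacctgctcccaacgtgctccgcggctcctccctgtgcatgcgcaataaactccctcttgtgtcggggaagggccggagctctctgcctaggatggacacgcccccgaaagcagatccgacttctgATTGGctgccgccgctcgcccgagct
Fabp7, chr20:37669356-37669605, plus strand: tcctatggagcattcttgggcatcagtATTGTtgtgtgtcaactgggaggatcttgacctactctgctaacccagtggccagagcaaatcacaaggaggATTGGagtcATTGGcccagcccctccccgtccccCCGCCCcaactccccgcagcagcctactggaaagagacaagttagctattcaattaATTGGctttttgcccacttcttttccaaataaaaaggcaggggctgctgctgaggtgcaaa
The Dbi window held 1 CCAAT, on the reverse strand 26 bases before the start, and 63.6% G and C. The Fabp7 window held 3 CCAAT, on the reverse strand at 151, 142 and 61 bases, and 51.6% G and C. CCAAT occurred in 34.0% of 33469 rat promoter windows of that length, GGGCGG in 30.5%, ACAAT in 30.02% and TATAAA in 12.9%, and the median G and C content was 51.2%. A match to so short a motif is a description of the letters, not of a bound site. Promoter windows were matched for 3 of the 4 genes (Dbi, Fabp7 and Apoe).

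Cell types were called from marker genes in clusters built without the 4 genes. Myelinating glia-like cells were cluster 1 at P1 and P7 and cluster 19 at P14. Glia-like cells low in myelin genes were cluster 5, whose leading genes included Sox2, a gene of the epithelial list, and no gene of the glial list, so it is compared by number. Dividing glia-like cells were cluster 12. Mesenchymal-like cells were 11 clusters, of which clusters 4, 14 and 21 held nearly all those of P14. The 10 leading genes of cluster 4 held 2 osteoblast markers and 1 cochlear mesenchyme marker. Its osteoblast markers summed to 9311 CPM against 110.3 CPM in the rest, and its cochlear mesenchyme markers to 20222 against 10011 CPM.

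Levels are ranked here and below among types with 50 cells or more of a stage. On that basis Dbi was highest in the myelinating glia-like cells at each stage. It stood there at 8254 CPM [8135, 8373] at P1, 7325 CPM [7278, 7373] at P7 and 2931 CPM [2818, 3047] at P14. Cluster 5 and the dividing glia-like cells had only 17 and 5 cells at P14. These held 1.36% and 0.850% of the P14 Dbi UMIs in 0.172% and 0.0918% of all P14 UMIs. Cluster 5 had 7770 CPM at P1 and 6597 CPM at P7, and the dividing glia-like cells had 6584 and 6346 CPM. With every cell thinned to 1000 UMIs, Dbi was found in 98.3% to 99.7% of the cells of these glial types at P1 and P7, and in 90.5% of myelinating glia-like cells at P14.

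The unnamed cluster 20, which carried markers of both glia and neurons, was close to the glia-like types, with 6460 CPM at P1 and 6659 CPM at P7. The other types were lower at each stage. Cochlear epithelium-like cells had 1114 CPM at P1, 2424 CPM at P7 and 1793 CPM at P14, and the unnamed cluster 15 had 3418 CPM at P1 and 3270 CPM at P7. Cluster 15 carried markers of both glia and mesenchyme, and 86.3% of its cells were marked as doublets. Neuron-like cells, which were numerous enough only at P1, had 1917 CPM, above the epithelium-like cells of that stage. Mesenchymal-like cells had 411.6, 590.9 and 348.6 CPM, and endothelial-like cells the lowest levels among the named types, 363.6, 553.2 and 289.9 CPM. In thinned cells that was a share of 28.8%, 31.6% and 16.7% of endothelial-like cells (73.9%, 81.1% and 21.0% unthinned, at median depths of 9076, 6884 and 1115 UMIs). Barcodes with 500 genes or fewer, in which free RNA and cells with little RNA cannot be told apart, had 348.7, 400.3 and 491.0 CPM of Dbi. They serve here as a cautious background, and a level below that of its stage is not read as expression. The endothelial-like level of P1 was close to that of these barcodes. At P14 the mesenchymal-like, endothelial-like and macrophage-like (341.7 CPM) levels were below the value of the P14 barcodes.

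From P1 to P7 the direction of Dbi differed between types. In cochlear epithelium-like cells it was 2.18-fold higher at P7 (log2 ratio 1.11 [1.02, 1.21]) and in mesenchymal-like cells 1.44-fold higher (0.51 [0.48, 0.54]). In myelinating glia-like cells it was 0.89-fold (-0.17 [-0.20, -0.14]). From P7 to P14 it was lower in each of the 6 types with 50 cells or more at both stages, with log2 ratios of -1.32 in myelinating glia-like cells and -0.40 [-0.86, 0.04] in pericyte- and smooth muscle-like cells, where the interval includes 0. The ratios in mesenchymal-like, endothelial-like and macrophage-like cells, 3 of the 6, rest on P14 levels below the background.

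**Figure D1:**
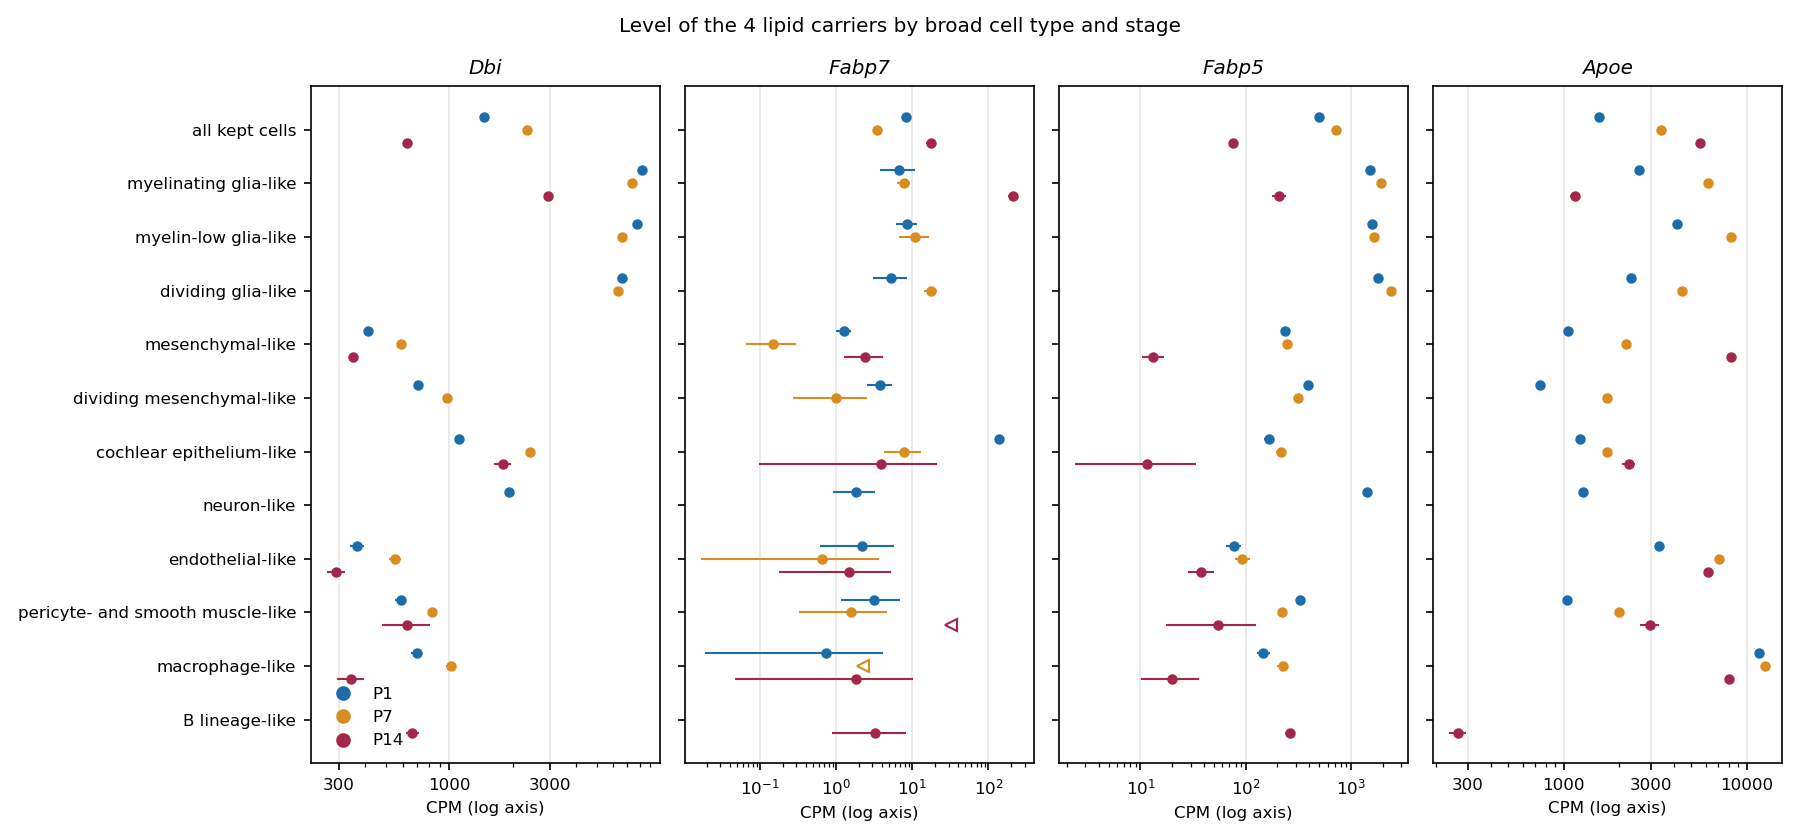
CPM of each of the 4 genes (log axis) in each named cell type with 50 cells or more, with 1 point per stage, exact 95% Poisson intervals for counting error and open triangles at the 3-count floor where no UMI was found. Among the named types Dbi and Fabp5 were highest in the glia-like types at P1 and P7, while Apoe was highest in macrophage-like cells at P1 and P7.

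Fabp5 followed the glia at P1 and P7 and was low in most cell types at P14. In myelinating glia-like cells it had 1518 CPM [1467, 1569] at P1, 1940 CPM [1915, 1964] at P7 and 208.5 CPM [179.2, 241.1] at P14. Cluster 5 had 1578 and 1645 CPM at P1 and P7, and dividing glia-like cells had 1792 and 2423 CPM. The unnamed cluster 20 was above each glia-like type at both stages, with 1984 CPM at P1 and 2452 CPM at P7, where its interval overlapped that of the dividing glia-like cells. Neuron-like cells had 1416 CPM at P1, and 74.7% of them held a Fabp5 UMI after thinning.

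In mesenchymal-like cells Fabp5 stood at 236.0 CPM [232.2, 239.9] at P1, 244.6 CPM [240.4, 248.8] at P7 and 13.2 CPM [10.3, 16.6] at P14. The share of these cells with a UMI went from 18.1% and 17.9% to 0.706% after thinning. The P7 level spanned 63.7 CPM (cluster 7) to 512.2 CPM (cluster 0), and the P14 level 4.4 CPM (cluster 4) to 28.4 CPM (cluster 14). The lowest P7 cluster was above the highest P14 cluster. Both were below the barcodes with 500 genes or fewer of their stage (170.3 and 30.3 CPM), so neither level is read as expression. P14 to P7 log2 ratios were -3.46 in mesenchymal-like, -3.39 in cochlear epithelium-like, -3.16 in myelinating glia-like and -2.96 in macrophage-like cells. They were -1.86 in pericyte- and smooth muscle-like and -1.11 in endothelial-like cells. The order of the types is not firm, since the ratio in macrophage-like cells was -0.30 under a mitochondrial limit of 10% and -3.92 with 20 principal components, and that in endothelial-like cells -0.25 without marked doublets and -2.01 with the mean over cells. B lineage-like cells, which reached 50 cells only at P14, had 263.8 CPM [235.9, 293.9], with a UMI in 19.4% of thinned cells. That was the highest Fabp5 level of P14, with an interval that overlapped that of the myelinating glia-like cells. Endothelial-like cells had 77.0 CPM of Fabp5 at P1, 93.2 CPM at P7 and 37.9 CPM at P14, the lowest of the named types at P1 and P7. Barcodes with 500 genes or fewer had 231.5 CPM of Fabp5 at P1, 170.3 CPM at P7 and 30.3 CPM at P14, so the P1 level of mesenchymal-like cells was close to that of these barcodes. The P1 levels of epithelium-like (164.8 CPM), macrophage-like (146.5 CPM) and endothelial-like cells and the P7 level of endothelial-like cells were below the barcodes of their stage. The P14 mesenchymal-like, epithelium-like (11.5 CPM) and macrophage-like (20.1 CPM) levels were below the value of the P14 barcodes.

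Fabp7 was rare, and its level was set by a few cells. Over all kept cells it had 8.26 CPM [7.71, 8.85] at P1, 3.42 CPM [3.05, 3.81] at P7 and 17.7 CPM [15.4, 20.3] at P14. Of the 349 cells with a Fabp7 UMI, 290 had 1 or 2 UMIs and 59 had 3 or more. Those 59 cells held 74.2% of all 1334 Fabp7 UMIs. Thinned shares were 0.228%, 0.291% and 0.594% of cells at P1, P7 and P14 (1.03%, 1.43% and 0.720% unthinned).

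By type, Fabp7 was highest in myelinating glia-like cells of P14, at 211.9 CPM [182.4, 244.8], against 6.65 CPM at P1 and 7.68 CPM at P7. The unnamed cluster 20 had 206.3 CPM [181.9, 233.1] at P1, which overlaps that interval, and 33.2 CPM at P7. Its P1 level rests mainly on 1 of 173 cells, which held 206 of the 258 Fabp7 UMIs. Cochlear epithelium-like cells of P1 followed, at 138.8 CPM [124.3, 154.6], against 7.68 CPM at P7 and 3.85 CPM (1 UMI) at P14. In the epithelium-like cells the order of P1 and P7 reversed under 3 alternatives, with P7 to P1 log2 ratios of 0.85 under a mitochondrial limit of 10%, 0.72 without marked doublets and 0.73 with 20 principal components, against -3.07. The remaining glial levels lay between 5.29 and 17.5 CPM, the highest in dividing glia-like cells of P7. Mesenchymal-like cells had 1.25, 0.150 and 2.38 CPM, below the 2.82, 0.628 and 5.27 CPM of the barcodes with 500 genes or fewer, and these levels are not read as expression.

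The cells behind these levels were looked at after their values were seen, so what follows has no test. Of the 284 epithelium-like cells at P1, 4 held 330 of the 332 Fabp7 UMIs. Across all types 20 cells had 10 or more Fabp7 UMIs: 8 at P1, 2 at P7 and 10 at P14. The 8 cells of P1 held 78.3% of that stage's Fabp7 UMIs and the 10 cells of P14 held 70.9%.

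The 8 high cells of P1 had 18 to 206 Fabp7 UMIs each. They lay in the epithelium-like cluster (4 cells), in cluster 20 (2 cells) and in a mesenchymal-like and the dividing mesenchymal-like cluster (1 cell each, both marked as doublets), and 5 of the 8 had over 10% of UMIs on mitochondrial genes. Their leading genes included Mt3, a metallothionein, at 2407 CPM against 12.01 CPM in the other P1 cells. Aqp4, a water channel of astrocytes, had 826.2 against 0.439 CPM, Gfap, the intermediate filament of astrocytes, 718.4 against 0.265 CPM, and Olig1, a transcription factor of central glia, 754.4 against 0.112 CPM. Pooled, these cells had 11746 against 1462 CPM of Dbi, 14943 against 1559 CPM of Apoe and 1383 against 501.2 CPM of Fabp5. Apoe was uneven among them, with 8 to 431 UMIs per cell, and 1 cell held 431 of the 832 Apoe UMIs. The 2 cells in cluster 20 had only 8 Apoe UMIs of 6631 and 18 of 9358.

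The 10 high cells of P14 were all in cluster 19. Olig1 was among their leading genes too, at 630.5 against 2.33 CPM in the other P14 cells. Mobp, a central myelin protein, stood at 6866 CPM against 34.3 CPM in the other P14 cells, and Mog, the myelin oligodendrocyte glycoprotein, at 2592 against 8.81 CPM. Apoe was at 0 to 3 UMIs in each of these 10 cells.

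Splitting the 339 myelinating glia-like cells of P14 at 3 Fabp7 UMIs gave 16 cells above and 323 below. Mog was found in all 16 (2429 CPM) and in 2 of the 323 (3.87 CPM). The 16 cells had 93048 UMIs in all and the 323 had 775239, so the 16 were deeper per cell. The cells were not thinned for this split, so the counts of cells with Mog are not matched for depth. The 16 cells held 182 of the 184 Fabp7 UMIs of the type and Apoe at 257.9 CPM against 1267 CPM in the rest. Dbi differed less, 2440 CPM [2133, 2778] against 2990 CPM [2870, 3114]. Of the 2221 myelinating glia-like cells of P7, 5 had 3 or more Fabp7 UMIs, and they held 20.6% of its Fabp7 UMIs.

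**Figure D2:**
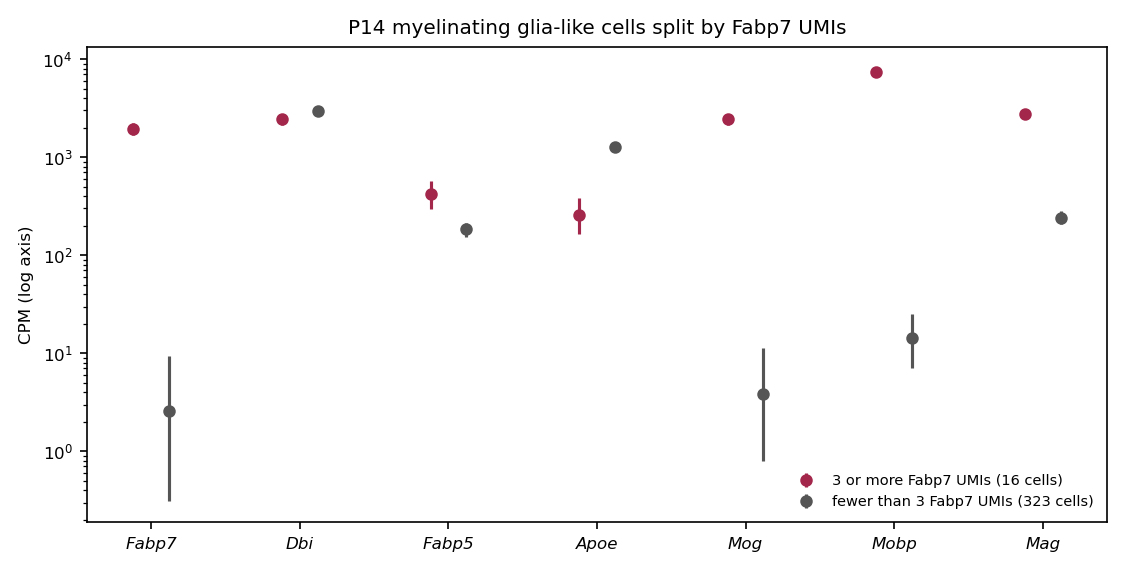
Levels (CPM, log axis) of the 4 genes and of the myelin genes Mog, Mobp and Mag in the P14 myelinating glia-like cells with 3 or more Fabp7 UMIs (16 cells) and in the rest (323 cells), with exact 95% Poisson intervals. Mog and Mobp were high in the 16 cells, and Apoe was higher in the rest.

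Apoe was highest in macrophage-like cells at P1 and P7. These had 11744 CPM [11562, 11928] at P1, 12605 CPM [12417, 12796] at P7 and 7972 CPM [7738, 8213] at P14. Endothelial-like cells had 3319, 7050 and 6151 CPM. Cluster 5 had 4180 CPM at P1 and 8235 CPM at P7, above myelinating glia-like cells at both stages.

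Myelinating glia-like cells had 2599 CPM [2533, 2666] at P1, 6173 CPM [6130, 6217] at P7 and 1159 CPM [1088, 1232] at P14, so the highest of the 3 values was that of P7. Mesenchymal-like cells had 1057 CPM [1049, 1065], 2183 CPM [2171, 2196] and 8266 CPM [8190, 8342], the highest at P14. The 7 fibroblast markers summed in these cells to 2144, 5099 and 11727 CPM, and the 9 cochlear mesenchyme markers to 14227, 15519 and 13110 CPM. Their part in the Apoe difference was not tested. P7 to P1 log2 ratios of Apoe were close to 1 in several types: 1.24 in myelinating glia-like, 0.98 in cluster 5, 0.91 in dividing glia-like, 1.04 in mesenchymal-like, 1.08 in endothelial-like and 0.95 in pericyte- and smooth muscle-like cells. The ratio was lower in cochlear epithelium-like cells, 0.48 [0.38, 0.59], and in macrophage-like cells, 0.10 [0.06, 0.15]. Both turned under an alternative, the first to -0.17 in thinned cells and the second to -0.057 under a mitochondrial limit of 10%, where the epithelium-like ratio was 1.07. From P7 to P14 the ratio was 1.92 [1.89, 1.94] in mesenchymal-like and -2.40 [-2.50, -2.31] in myelinating glia-like cells, which come from different clusters at the 2 stages. The P14 level in the glia was below that of the barcodes with 500 genes or fewer (6799 CPM). In the other types the ratio was 0.55 in pericyte- and smooth muscle-like, 0.39 in cochlear epithelium-like, -0.20 in endothelial-like and -0.66 in macrophage-like cells. The epithelium-like and macrophage-like ratios turned under an alternative. The difference between types in this ratio was not tested.

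The mesenchymal-like clusters differed among themselves in Apoe. At P1 they ranged from 465.8 CPM (cluster 0) to 2623 CPM (cluster 8) and at P7 from 1209 CPM (cluster 7) to 7659 CPM (cluster 8). At P14 they ranged from 4969 CPM (cluster 14) to 19152 CPM (cluster 21, led by Clec3b, which encodes tetranectin). The lowest P14 cluster was below the highest P7 cluster, so the stages overlap on this scale. It was also below the 6799 CPM of the P14 barcodes with 500 genes or fewer, and cluster 4, at 6850 CPM, was close to them.

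**Figure D3:**
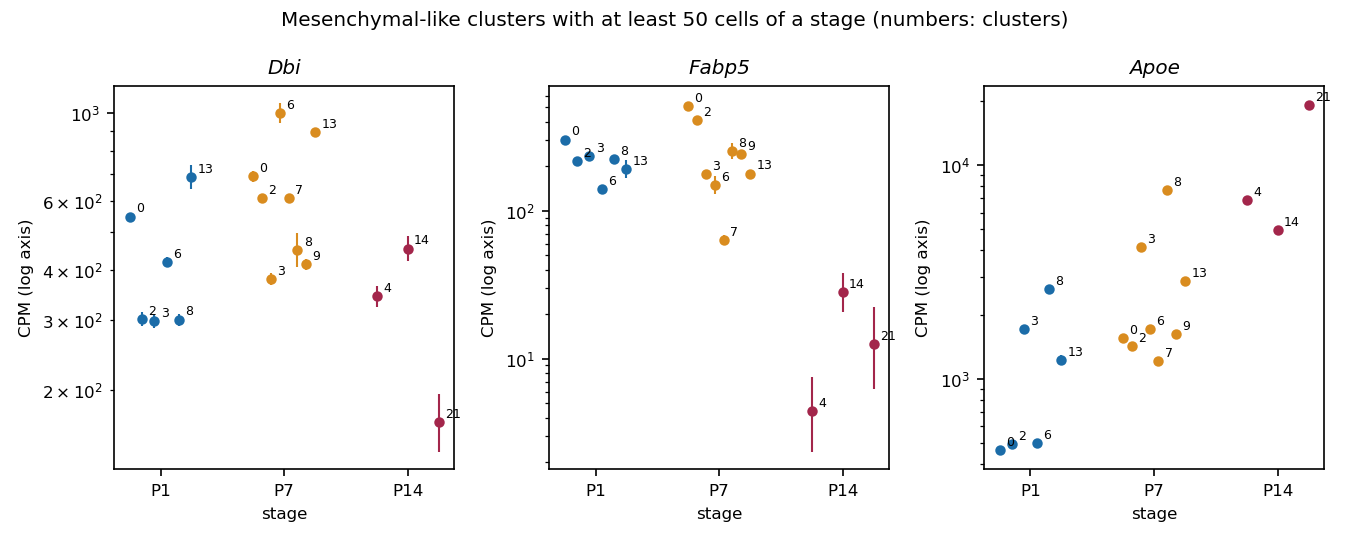
CPM of Dbi, Fabp5 and Apoe (log axis) in each mesenchymal-like cluster with 50 cells or more of a stage, with the cluster number beside each point and exact 95% Poisson intervals. Apoe spans 465.8 to 2623 CPM at P1 and 4969 to 19152 CPM at P14. Fabp5 at P14 lies below each P7 cluster and below the P14 barcodes with 500 genes or fewer.

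The barcodes with 500 genes or fewer were also highest in Apoe at P14. They had 602.8 CPM of Apoe at P1, 1036 CPM at P7 and 6799 CPM at P14, a value that only mesenchymal-like and macrophage-like cells of P14 exceeded among the named types. The P14 levels of endothelial-like, pericyte- and smooth muscle-like, cochlear epithelium-like, myelinating glia-like and B lineage-like cells were below this background, so the P14 ratios of Apoe in those types are given as values only. In B lineage-like cells of P14, taken here as a type that should lack Apoe, the level was 264.6 CPM [236.7, 294.8], with a UMI in 21.5% of thinned cells at a median depth of 3516 UMIs, against 92.2% of mesenchymal-like cells at 1591 UMIs. The 8 myelinating markers summed in mesenchymal-like cells to 25.6 CPM at P1, 52.8 CPM at P7 and 519.1 CPM at P14, with none of the 8 at 0. The 9 macrophage markers summed there to 7.04, 37.5 and 36.5 CPM, with Cx3cr1 at 0 at P1 and P14, against 5672 CPM or more in the macrophage-like cells. In cochlear epithelium-like cells the myelinating markers summed to 48.1, 236.0 and 750.2 CPM, with Ncmap at 0 at P1 and Mag at 0 at P14. The 7 genes of the broader glial list summed there to 803.4, 1575 and 11864 CPM, with none at 0, and at P14 that is above the 1250 CPM of the ridge markers. In macrophage-like cells the macrophage markers summed to 22460, 12801 and 5672 CPM at P1, P7 and P14. In the same cells the 7 fibroblast markers summed to 272.3, 1181 and 5301 CPM and the 9 cochlear mesenchyme markers to 2252, 3468 and 4784 CPM, with none at 0. Their part in the epithelium-like and macrophage-like levels of the 4 genes was not tested. The part of free RNA in the stage differences was not tested.

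Most Dbi and Fabp5 molecules came from the glia at P7. Glia-like cells are here pooled, cluster 5 included, and were 14.4%, 27.5% and 6.84% of the kept cells at P1, P7 and P14. They held 54.3%, 68.2% and 37.1% of the Dbi UMIs and 34.5%, 65.1% and 22.1% of the Fabp5 UMIs. Of the Apoe UMIs they held 22.1%, 38.8% and 1.67%, while mesenchymal-like cells held 42.3%, 36.6% and 69.7%. Without cluster 5 the glia-like cells were 5.56%, 23.1% and 6.51% of the kept cells, and held 27.6%, 62.3% and 35.7% of the Dbi UMIs, 18.7%, 60.4% and 20.8% of the Fabp5 UMIs and 8.71%, 33.8% and 1.57% of the Apoe UMIs. Macrophage-like cells, 1.30% of the P1 cells, held 10.3% of the P1 Apoe UMIs. At P14 the largest holder of Fabp5 UMIs was the B lineage-like cells, with 37.2% in 5.42% of the cells. The unnamed cluster 22 held 20.6% of them in 5.34% of the cells.

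Compared with all other kept cells over the 3 stages, glia-like cells had 7019 against 819.5 CPM of Dbi, 1876 against 332.1 CPM of Fabp5, 4869 against 2223 CPM of Apoe and 15.1 against 4.94 CPM of Fabp7. The log2 ratios were 3.08, 2.46, 1.13 and 0.75 in that order, and 3.06, 2.52, 1.09 and 0.84 with cluster 5 left out. The Apoe ratio was under 2-fold with the mean over cells (0.86) and in thinned cells (0.93), and that of Fabp7 was 0.39 without the P14 library and 1.89 without marked doublets. Of the 4 genes, 3 were at least 2-fold higher in glia and 0 at least 2-fold lower, beside 5.56% and 10.1% of the 7750 genes with 10 CPM or more over all kept cells. Fabp7, at 6.58 CPM, is not among those 7750 genes. Since the genes were listed for such levels, nothing is read from that count. By stage, as quotients of CPM with nothing added, Dbi was 10.0-fold, 7.23-fold and 7.04-fold higher in glia, and Fabp5 4.44-fold, 6.28-fold and 3.38-fold. Apoe was 2.40-fold (1.79-fold without cluster 5) and 2.14-fold higher at P1 and P7 and 0.202-fold at P14, where other cells had 5926 CPM against 1200 CPM in glia, both below the P14 barcodes. For Fabp7, whose levels in other cells are near the floor, the log2 ratios with 10 CPM added were -0.10 at P1, 0.92 at P7 (under 2-fold) and 4.16 at P14, where 16 cells held 182 of the 184 UMIs of the myelinating glia-like cells.

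Dbi, Fabp5 and Apoe UMIs were found together in 44.5%, 63.3% and 6.01% of thinned myelinating glia-like cells at P1, P7 and P14. In cluster 5 this share was 53.3% and 61.1% at P1 and P7, and in dividing glia-like cells 45.1% and 67.0%. The share was highest in the unnamed cluster 20, 65.1% at P1 and 82.4% at P7. The share was 33.7% and 47.4% in cluster 15, where most cells were marked as doublets, so it is not read as a trait of single cells. It was 35.1% in neuron-like cells at P1. In mesenchymal-like cells it was 2.20%, 5.56% and 0.372%.

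Over all kept cells, Dbi stood at 1468 CPM at P1, 2333 CPM at P7 and 626.9 CPM at P14, Fabp5 at 501.7, 726.8 and 75.5 CPM and Apoe at 1566, 3425 and 5561 CPM. Dbi and Fabp5 were highest at P7, and Apoe was highest at P14. In these levels fewer cells of a type and less RNA per cell cannot be told apart. From P1 to P7, 1 gene (Apoe, log2 ratio 1.12 [1.11, 1.14]) was at least 2-fold higher and 0 lower, beside 3.32% and 1.99% of the 7750 genes. From P7 to P14, 1 gene (Fabp7, 1.05 [0.88, 1.21]) was higher and 2 were lower (Dbi, -1.88 [-1.92, -1.84], and Fabp5, -3.11 [-3.20, -3.01]), beside 8.03% and 5.34%. The Fabp7 ratio was under 2-fold with the mean over cells (0.49) and in cells thinned to 1000 UMIs (0.76). Fabp7 is not among the 7750 genes, and 10 cells held 70.9% of its P14 UMIs. These 2 comparisons share the P7 library.

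With the cell type make-up held at that of P1, the P7 to P1 log2 ratio of Dbi was 0.09, against 0.66 as measured. That of Fabp5 was 0.15 against 0.53, and that of Apoe 0.93 against 1.12. From P7 to P14, over 6 types, the fixed-make-up ratios were -0.85 for Dbi, -3.28 for Fabp5 and 1.54 for Apoe. With each type weighted equally, the last value was -0.14. The 6 types held 85.1% of the P14 cells and 80.1% of the P7 cells. Mesenchymal-like cells, with 62.8% of all P1 UMIs, carry most of the P1 weight. They come from different clusters at P7 and P14, as do the myelinating glia-like cells. The make-up inside these types is therefore not held fixed.

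**Figure D4:**
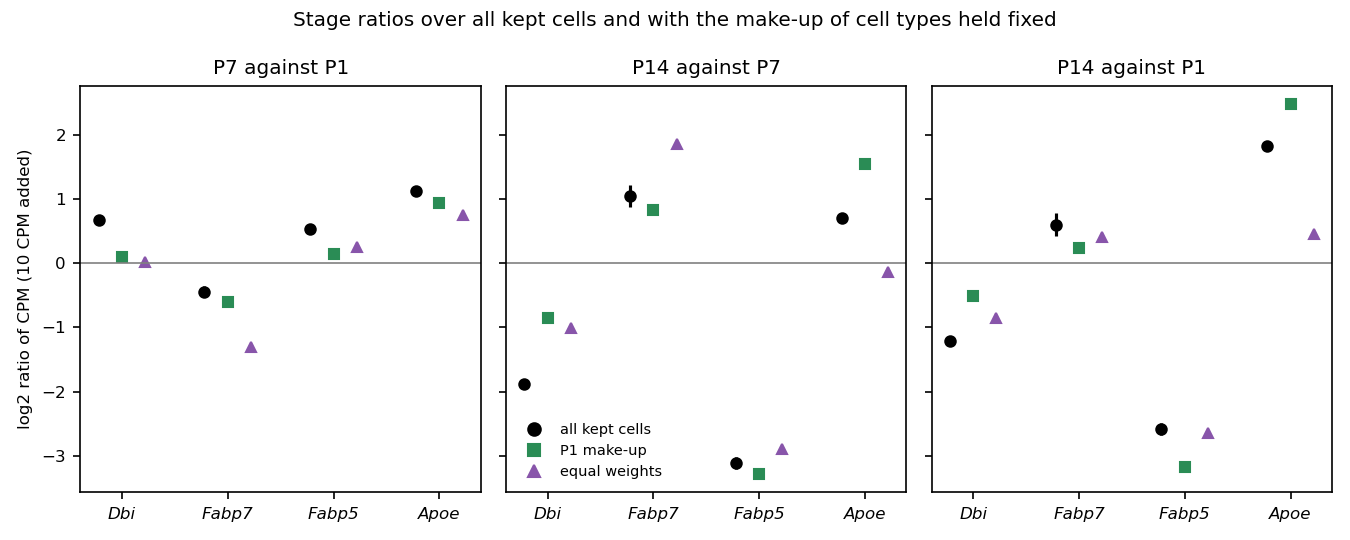
Log2 ratio of CPM (10 CPM added) between stages for each gene, over all kept cells (circles, with intervals for counting error), with the cell type make-up of P1 (squares) and with equal weights (triangles). Fabp5 lies near -3 at P14 against P7 in all 3 forms, and Apoe lies between -0.14 and 1.54.

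Within single types the counts were as follows. In myelinating glia-like cells from P1 to P7, 1 gene was at least 2-fold higher (Apoe) and 0 lower, beside 2.98% and 3.56% of genes. In cluster 5 from P1 to P7, 0 were higher and 0 lower, beside 3.34% and 3.01%, with Apoe at 0.98. In mesenchymal-like cells from P7 to P14, 1 was higher (Apoe) and 1 lower (Fabp5), beside 7.90% and 6.41%.

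Across 26 profiles (a cell type at a stage), the 5 genes most like Dbi by Pearson's r of log2(CPM + 10) were Metrn, a secreted factor of glia (0.95), Sh3gl3 (0.95), Atp10b (0.95), Erbb3, the neuregulin receptor of Schwann cells (0.93), and Gal3st1, which makes the myelin lipid sulfatide (0.93). Fabp5 was closest to Bzw2 (0.93), Dnajc7 (0.93), Gap43, a growth cone protein (0.90), Pnlip, a pancreatic-type lipase (0.88), and Rtraf (0.88). Apoe was closest to Tmem176a (0.86), Tmem176b (0.83), Tcn2, which carries vitamin B12 (0.81), Lamtor4 (0.80) and Apoc1, another apolipoprotein (0.79). Fabp7 had lower values, with Cdkn1b, a cell cycle inhibitor, first (0.70), then Ppm1l (0.67), Dixdc1 (0.67), Emid1 (0.67) and Slain1 (0.66). Among the 4 genes, Dbi and Fabp5 had an r of 0.78, Dbi and Apoe 0.05 and Fabp5 and Apoe -0.14. Ordered by Spearman's rho, 2 of the 5 genes stayed among the first 5 for Dbi, Fabp5 and Apoe each, and 1 of 5 for Fabp7, where Cdkn1b was at rank 165. Profiles of 1 stage share a library and its free RNA.

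Other genes of lipid handling were taken from 10 lists. Their counts of genes at least 2-fold higher or lower stand beside 5.56% and 10.1% of all genes for glia, and 7.90% and 6.41% for mesenchymal-like cells at P14 against P7. In the intracellular lipid-binding family, 13 further members were in the matrices and 4 reached 10 CPM. Pmp2, the fatty acid carrier of peripheral myelin, was at 670.2, 896.9 and 241.9 CPM in myelinating glia-like cells and was higher in glia (log2 ratio 3.97), while Fabp3 (-1.16) and Crabp2 (-1.04), carriers of fatty acids and retinoic acid, were lower in glia (1 of the 2 without cluster 5). Fabp4, the carrier of adipocytes and capillaries, reached 332.8 CPM in endothelial-like cells of P14. Of the acyl-CoA-binding domain genes, 4 of 6 reached 10 CPM and 0 differed 2-fold in glia.

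Of 17 other apolipoproteins 4 reached 10 CPM. Apod and Clu, secreted lipid carriers, were lower in glia (-3.29 and -3.10), and 0 were higher. Apod in mesenchymal-like cells had 1041 CPM at P1, 3325 CPM at P7 and 15711 CPM at P14, highest at P14 as Apoe was there, and in myelinating glia-like cells 28.8, 94.7 and 3145 CPM. Apoc1 and Apod were the 2 of 4 that were 2-fold higher in mesenchymal-like cells at P14 than at P7, and 0 were lower, beside 7.90% and 6.41% of all genes. Among 7 measured lipoprotein receptors, Lrp1, an Apoe receptor, was lower in glia (-1.86) and stood at 184.6, 382.6 and 664.8 CPM in mesenchymal-like cells. Trem2, a lipid receptor of macrophages, had 671.9, 639.9 and 208.3 CPM in macrophage-like cells. Lrp2, the megalin receptor, reached 2281 CPM in cochlear epithelium-like cells at P14.

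In the list of lipid efflux and lipoprotein remodelling, 7 of 11 reached 10 CPM. Abca1, which loads cholesterol onto apolipoproteins, was at 45.9, 70.2 and 285.7 CPM in mesenchymal-like cells, and with Lpl, a lipoprotein lipase, was 1 of 2 that were 2-fold higher there at P14 than at P7. Pltp, a phospholipid transfer protein, and Lpl were lower in glia (-3.00 and -1.38). Of 6 measured genes of fatty acid uptake and activation, Slc27a1, a fatty acid transporter, was higher in glia (1.33), and the acyl-CoA synthetases Acsl3 and Acsl4 were higher in mesenchymal-like cells at P14 (1.07 and 2.17).

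Of 16 measured cholesterol synthesis genes 9 were at least 2-fold higher in glia and 0 lower, beside 5.56% and 10.1% of all genes, with a median log2 ratio of 1.06 against -0.07 over all genes. Without cluster 5 there were 11 higher and 0 lower, with a median of 1.18. Hmgcs1, an early enzyme of the pathway, stood at 116.6, 234.9 and 495.2 CPM in myelinating glia-like cells, and Fdps, which makes farnesyl diphosphate, at 139.3, 404.1 and 301.7 CPM. From P1 to P7 in these cells 4 of 16 were higher (Idi1, Fdps, Nsdhl and Srebf2) and 0 lower, beside 2.98% and 3.56% of all genes. Of 6 measured genes of fatty acid synthesis, the desaturase Scd2 (1.30) and the elongase Elovl1 (2.16) were higher in glia and 0 were lower. Scd2 in myelinating glia-like cells had 690.1, 937.3 and 4960 CPM.

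Of 5 measured lipid-sensing receptors, Rxrg, a retinoid X receptor, was higher in glia (2.89) and stood at 150.4, 121.3 and 8.06 CPM in myelinating glia-like cells. Of the known binding partners of Dbi only Tspo, the mitochondrial translocator protein, reached 10 CPM. It had 132.6, 139.8 and 48.4 CPM in myelinating glia-like cells and was highest in macrophage-like cells of P1, at 537.9 CPM. The GABA receptor subunits of the same list were at most 12.5 CPM in a type (Gabrg1, neuron-like cells of P1).

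**Figure D5:**
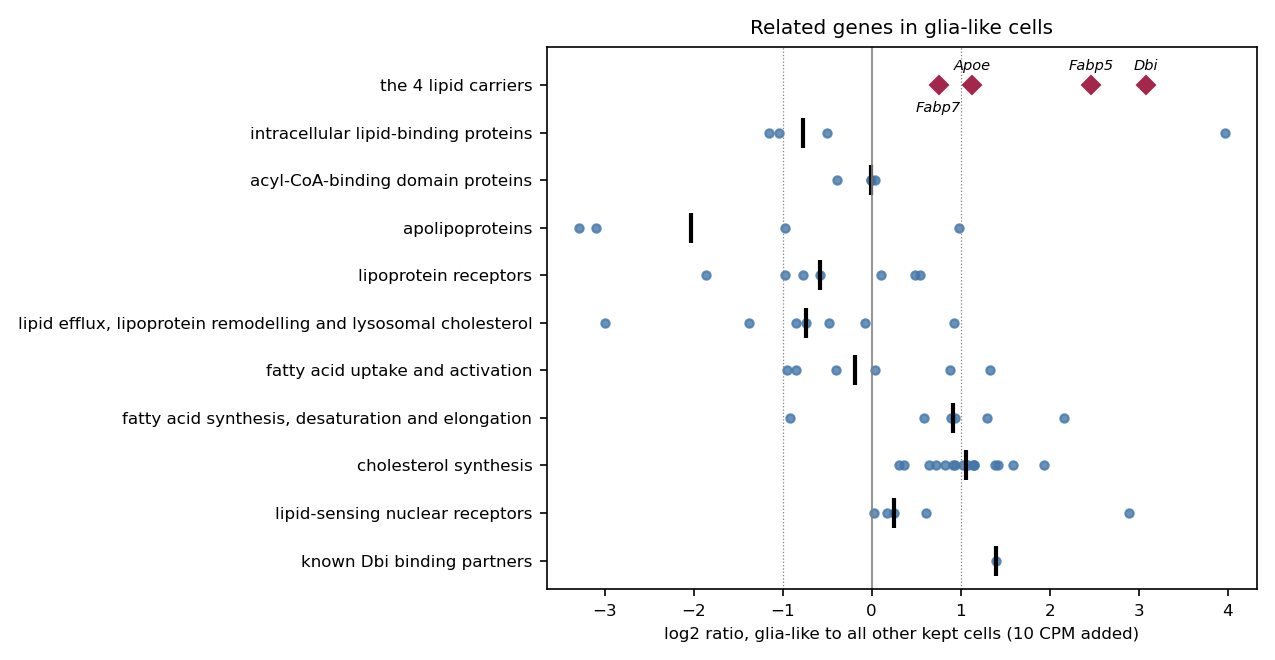
Log2 ratio of glia-like to all other kept cells (10 CPM added) for the genes of each lipid list with 10 CPM or more, and for the 4 carriers. Most cholesterol synthesis genes lie above 0, and Apod and Clu lie near -3.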

How the data were processed

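Per the labels, single cells of cochlear tissue were captured with a 10x Chromium 3' V3 kit. The authors deposited UMI counts per gene and barcode, made with Cell Ranger (matrix header software 3.1.0) on build rn6; the annotation is not given in the sources used here. The submitters' processing notes also name bcl2fastq and Seurat 3.1.1.

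Barcodes with over 500 and under 5000 genes and under 25% mitochondrial UMIs were kept, following the study's methods. The study counts 34927 cells after quality control, which equals the barcodes in the files; the stated filter leaves 30641. The 3 libraries were merged without integration in Seurat 5.3.0 (R 4.3.3): log-normalization, 2000 variable genes without the 4 members, 10 principal components and resolution 0.8. Other steps used Python 3.11.15, scipy 1.17.1 and scanpy 1.11.5. Clusters were named from fixed marker lists; the scoring rule was set after cluster values were seen. Clusters below a score of 0.5, with under 3 detected markers, or with 2 classes of markers stayed unnamed. Names rebuilt in this way may differ from those of the study.

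With 1 library per stage no test between stages was made. Levels carry exact Poisson intervals, and shares of cells thinned to 1000 UMIs carry Clopper-Pearson intervals. Thinning left out 37, 193 and 735 shallower cells at P1, P7 and P14. Log2 ratios add 10 CPM, and a gene is counted at 2-fold on that scale; values written as n-fold are quotients of CPM with nothing added. Kept UMIs numbered 98005495, 93080129 and 11641065.

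The members and lists were chosen with earlier results of these data known. Named genes are the 4 members, up to 4 genes per list with the highest CPM in a type, and the 5 genes most like each member; further genes past 2-fold were named after their values were seen. Some genes that the rule names are not reported here. The steps that compute intervals and 2-fold calls were tested on simulated data. Alternatives covered the mitochondrial limit, doublets, the average, the total, the added CPM, thinning, clustering and weights.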

Additional observations from a re-analysis of the deposited data

Results flagged for a closer look

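Barcodes with 500 genes or fewer were left out of the comparisons, and signal in them above what a count of 0 allows is listed here. They held Dbi at 348.7 CPM at P1, 400.3 CPM at P7 and 491.0 CPM at P14, and Fabp5 at 231.5, 170.3 and 30.28 CPM. Apoe stood at 602.8 CPM at P1, 1036.0 CPM at P7 and 6799.0 CPM at P14, and Fabp7 at 5.266 CPM at P14. The P14 to P7 log2 ratio of Apoe also differed in sign between cell types. It was 1.9157 in mesenchymal-like cells and -2.4036 in myelinating glia-like cells, each from 1 library per stage. The P14 level in the glia was below the 6799.0 CPM of the P14 barcodes, so the glial ratio is given as a value only. The difference between the 2 types was not tested.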

How the results depend on the processing

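Each stage is 1 library of pooled rats, so a library and its stage cannot be told apart, and intervals cover counting error only. The lower depth of P14 limits low levels there most. No paired analysis was possible because each stage has 1 library. A value is said to move when it leaves its counting interval, which is narrow at these depths, and the cause of each move was not tested unless given. Among the main values, 111 settings moved a value, 1 reversed it and 40 did neither. Log2 ratios follow, in the order P7 to P1, P14 to P7, and glia-like to all other cells.

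With a mitochondrial limit of 10%, P7 to P1 was 0.65 for Dbi, -0.0153 for Fabp7 (5 of the 8 high P1 cells lie above that limit), 0.61 for Fabp5 and 1.03 for Apoe; P14 to P7 was -1.48 for Dbi, -2.85 for Fabp5 and 0.95 for Apoe. The glial ratio was 3.25 for Dbi, 1.46 for Fabp7, 2.66 for Fabp5 and 1.04 for Apoe. Without the cells Scrublet marks, P7 to P1 was 0.70 for Dbi and 1.16 for Apoe, and the glial ratio 3.36 for Dbi, 1.89 for Fabp7, 2.60 for Fabp5 and 1.195 for Apoe. With the mean over cells of each cell's CPM, P7 to P1 was 0.65 for Dbi, -0.59 for Fabp7, 0.65 for Fabp5 and 1.15 for Apoe, P14 to P7 was -2.25 for Dbi, 0.49 for Fabp7, -4.06 for Fabp5 and 0.75 for Apoe, and the glial ratio 3.39 for Dbi, 2.71 for Fabp5 and 0.86 for Apoe. With mitochondrial and ribosomal protein genes out of the total, P7 to P1 was 0.58, -0.57, 0.44 and 1.04 for Dbi, Fabp7, Fabp5 and Apoe, P14 to P7 was -2.02, -3.27 and 0.56 for Dbi, Fabp5 and Apoe, and the glial ratio 3.07 for Dbi and 1.11 for Apoe.

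With 1 CPM added, Fabp7 was -1.07 at P7 to P1 and 2.08 at P14 to P7, Fabp5 was -3.25 at P14 to P7, and the glial ratio was 3.097 for Dbi, 1.44 for Fabp7 and 2.49 for Fabp5. That setting gave more genes past 2-fold: 592 higher and 372 lower at P7 to P1, 1011 and 716 at P14 to P7, 760 and 584 in myelinating glia-like cells and 760 and 589 in cluster 5 (both P7 to P1), and 1009 and 881 in mesenchymal-like cells (P14 to P7). In cells thinned to 1000 UMIs, P7 to P1 was 0.66 for Fabp5 and 1.14 for Apoe, P14 to P7 was -2.20, 0.76, -3.99 and 0.74 for Dbi, Fabp7, Fabp5 and Apoe, and the glial ratio 3.37, 2.68 and 0.93 for Dbi, Fabp5 and Apoe.

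The glial ratio of Dbi, Fabp5 and Apoe was 3.17, 2.54 and 1.18 at resolution 0.4 and 3.18, 2.53 and 1.18 with 20 principal components. For Dbi, Fabp7, Fabp5 and Apoe it was 3.06, 0.39, 2.42 and 1.33 without the P14 library and 3.50, 0.93, 2.72 and 1.204 without the mixed clusters 15 and 20, and without cluster 5 it was 3.06, 2.52 and 1.09 for Dbi, Fabp5 and Apoe. These last 3 alternatives were chosen after seeing the data. Equal weight for each type gave P7 to P1 ratios of 0.0208, -1.30, 0.24 and 0.74 for Dbi, Fabp7, Fabp5 and Apoe, P14 to P1 ratios of -0.85, -2.64 and 0.45 for Dbi, Fabp5 and Apoe, P14 to P7 ratios of -1.002, 1.86 and -2.89 for Dbi, Fabp7 and Fabp5, and -0.14 for Apoe, which reversed.

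Shares of cells with a UMI at P1, P7 and P14, thinned to 500 UMIs, were 33.6%, 47.4% and 19.4% for Dbi, 17.7%, 24.4% and 1.84% for Fabp5 and 36.7%, 60.01% and 71.6% for Apoe, with 0.167% and 0.360% for Fabp7 at P7 and P14. Without thinning they were 88.7%, 94.6% and 44.4% for Dbi, 64.3%, 66.04% and 6.95% for Fabp5, and 84.4%, 96.6% and 90.1% for Apoe, with 1.03% and 1.43% for Fabp7 at P1 and P7.

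Among single types, 14 values reversed. In cochlear epithelium-like cells, Fabp7 at P7 to P1 was 0.85 with the 10% limit, 0.72 without marked doublets and 0.73 with 20 components, and Apoe was -0.17 at P7 to P1 when thinned to 1000 UMIs. Apoe at P14 to P7 in that type was -1.51 at resolution 1.2, -1.51 with the members among the variable genes and -0.55 with 20 components. In macrophage-like cells the 10% limit gave -0.15, -0.068 and -0.057 for Dbi, Fabp5 and Apoe at P7 to P1, Fabp5 was -0.15 with the members among the variable genes, and Apoe at P14 to P7 was 0.20 with 20 components. Fabp5 at P7 to P1 in mesenchymal-like cells was -0.0504 with the reduced total, and Dbi in dividing glia-like cells was 0.0196 without marked doublets.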
